A study of Mus musculus with 3 samples.

Results

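Of 21893 open chromatin regions found in cultured mouse hematopoietic stem cells (HSCs), 1377 (6.29%) had an ATAC-seq peak under both mTOR inhibitors, AZD2014 and rapamycin, and none in the solvent control. They were selected on the measured peaks themselves: each of the 3 deposited peak lists was shortened to its 17189 highest scores, overlapping peaks were merged into regions, and regions with a peak in both drug lists and no DMSO peak were kept. Their presence, scores and ranks are therefore descriptions of that choice. For comparison, 1079 regions had a peak under DMSO and AZD2014 but not rapamycin, 820 under DMSO and rapamycin but not AZD2014, and 13024 in all 3 lists. The DMSO list had the narrowest peaks, with a median of 610 bp beside 787 bp (AZD2014) and 735 bp (rapamycin). In the 13024 regions of all 3 lists the median scores were 166, 247 and 193 in that order. Their median widths were 697, 885 and 826 bp. Whether this difference between libraries bears on the number of both-drug regions was not tested.

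The mTOR kinase works in 2 complexes: mTORC1 promotes protein, lipid and nucleotide synthesis and restrains autophagy when amino acids and growth factors are present, and mTORC2 phosphorylates AKT and related kinases. AZD2014 (vistusertib) competes with ATP in the kinase pocket and so reaches both complexes, whereas rapamycin binds FKBP12 and inhibits mTORC1 allosterically. In HSCs, mTOR activity is known for its part in leaving quiescence. In ATAC-seq a transposase inserts adapters where DNA is accessible, at active promoters and at regulatory elements farther from genes.

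The HSCs were sorted from adult, poly(I:C)-treated mice of genotype Mx1-Cre-/-;mTORflox/flox, in which no Cre is present and mTOR is intact, and all were cultured in StemSpan SFEM. They received DMSO, 200 nM AZD2014 or 1 µM rapamycin, and 50000 cells entered each library. Each condition had 1 library, so there is no replicate check, no p-value is given, and 95% Wilson intervals on shares cover counting error only. The sources used here give neither read depth nor the number of mice or the duration of treatment. A peak missing from a list may reflect fewer cells with an open site or less accessibility per cell, which cannot be told apart in bulk.

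Among HSC loci, a gene-end peak (no more than 1 kb from either end of the gene) was present in all 3 lists at Kit, Mecom, Meis1, Hlf, Runx1 and Tal1. Lmo2 had one under DMSO and AZD2014, Ptprc and Cd34 under AZD2014 alone, and Ly6a, Slamf1, Procr, Gata2, Cd48 and Tek in no list. Kit, Mecom, Meis1, Hlf and Tal1 are HSC genes without a both-drug region within 20 kb, whereas Runx1, Lmo2 and Slamf1 had 1 each.

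The promoters below show what the both-drug regions hold at gene starts. They belong to the best-ranked regions and to members of signalling, stress and transcription factor lists, and each lies wholly inside its region. Each is the RefSeq window of 300 bases on GRCm38.p6 (the assembly that mm10 names), from 250 bases before the listed gene start to 50 after it, given 5′ to 3′ on the gene's strand. Capitals mark the GC box GGGCGG, bound by Sp and Krüppel-like factors, and the ETS motif CCGGAAG, on either strand. The windows are Egln1 chr8:124949205-124949504 (minus strand), Jade1 chr3:41564630-41564929 (plus), Ezh1 chr11:101226414-101226713 (minus), Tsc2 chr17:24632578-24632877 (minus), Irs1 chr1:82291390-82291689 (minus), Tnfrsf1a chr6:125349473-125349772 (plus), Elk3 chr10:93311110-93311409 (minus) and Ctso chr3:81932351-81932650 (plus).
Egln1: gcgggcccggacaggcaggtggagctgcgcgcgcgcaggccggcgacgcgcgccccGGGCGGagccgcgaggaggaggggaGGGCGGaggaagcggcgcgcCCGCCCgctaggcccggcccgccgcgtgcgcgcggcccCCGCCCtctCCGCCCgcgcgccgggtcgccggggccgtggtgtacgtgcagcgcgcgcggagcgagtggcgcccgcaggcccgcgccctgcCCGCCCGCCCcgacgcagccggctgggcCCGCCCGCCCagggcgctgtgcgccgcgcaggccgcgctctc
Jade1: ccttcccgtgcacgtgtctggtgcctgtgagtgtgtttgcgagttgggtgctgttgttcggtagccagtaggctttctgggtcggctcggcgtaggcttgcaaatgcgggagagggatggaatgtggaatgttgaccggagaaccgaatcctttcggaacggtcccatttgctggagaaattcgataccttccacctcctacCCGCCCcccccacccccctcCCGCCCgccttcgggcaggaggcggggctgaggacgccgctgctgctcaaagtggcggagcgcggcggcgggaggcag
Ezh1: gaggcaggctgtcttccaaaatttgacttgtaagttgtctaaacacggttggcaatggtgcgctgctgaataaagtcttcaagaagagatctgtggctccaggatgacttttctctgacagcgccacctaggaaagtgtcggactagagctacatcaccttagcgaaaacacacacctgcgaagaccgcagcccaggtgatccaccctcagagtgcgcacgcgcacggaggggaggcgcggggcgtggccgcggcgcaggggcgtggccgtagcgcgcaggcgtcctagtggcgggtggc
Tsc2: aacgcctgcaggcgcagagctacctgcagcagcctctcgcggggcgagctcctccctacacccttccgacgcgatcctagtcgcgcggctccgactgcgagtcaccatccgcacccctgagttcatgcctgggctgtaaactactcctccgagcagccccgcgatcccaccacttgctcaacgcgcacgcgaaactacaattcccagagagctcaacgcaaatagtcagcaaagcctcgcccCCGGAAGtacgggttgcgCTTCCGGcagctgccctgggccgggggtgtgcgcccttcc
Irs1: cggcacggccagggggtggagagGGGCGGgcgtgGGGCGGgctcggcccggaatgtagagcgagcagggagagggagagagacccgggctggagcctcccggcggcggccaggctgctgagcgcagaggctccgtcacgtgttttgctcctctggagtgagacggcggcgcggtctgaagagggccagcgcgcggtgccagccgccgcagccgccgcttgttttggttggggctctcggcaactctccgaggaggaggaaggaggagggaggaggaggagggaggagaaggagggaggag
Tnfrsf1a: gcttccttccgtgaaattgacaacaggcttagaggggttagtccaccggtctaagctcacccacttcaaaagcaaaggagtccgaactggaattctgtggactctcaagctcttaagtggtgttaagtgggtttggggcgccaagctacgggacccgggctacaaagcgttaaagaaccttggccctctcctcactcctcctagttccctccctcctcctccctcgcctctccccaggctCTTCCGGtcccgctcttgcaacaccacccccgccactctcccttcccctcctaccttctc
Elk3: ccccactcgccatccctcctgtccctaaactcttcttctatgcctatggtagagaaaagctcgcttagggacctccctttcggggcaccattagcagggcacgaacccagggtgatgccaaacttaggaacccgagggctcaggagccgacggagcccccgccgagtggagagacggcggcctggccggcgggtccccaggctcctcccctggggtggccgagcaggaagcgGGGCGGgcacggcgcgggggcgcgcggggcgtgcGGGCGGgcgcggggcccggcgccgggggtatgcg
Ctso: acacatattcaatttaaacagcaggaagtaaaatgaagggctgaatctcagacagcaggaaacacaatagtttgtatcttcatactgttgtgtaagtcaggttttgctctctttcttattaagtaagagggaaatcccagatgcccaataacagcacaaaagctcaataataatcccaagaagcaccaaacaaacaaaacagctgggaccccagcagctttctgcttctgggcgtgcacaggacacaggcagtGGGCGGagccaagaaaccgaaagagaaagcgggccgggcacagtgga

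These 8 promoters ran from GC-rich to GC-poor. The Egln1 promoter was 86.0% G and C with 60 CpG dinucleotides and 9 GC box matches, overlapping ones included. The Irs1 and Elk3 promoters were both 71.3% G and C and held 2 GC boxes each. The Tsc2 promoter held 2 ETS matches on opposite strands and no GC box, and the Tnfrsf1a promoter 1 ETS match and no GC box. At the other end, the Ctso promoter was 45.3% G and C with 5 CpG dinucleotides and 1 GC box, and the Ezh1 promoter had neither motif.

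Most both-drug regions had weak peaks. The authors' score per peak, which ranks peaks within a list and is not on a shown common scale between lists, ran from 67.1 to 577 under AZD2014 (median 93.7) and from 53.7 to 191 under rapamycin (median 75.4). Taking the worse of the 2 ranks, the median region stood at 85.9% of the list, counted from the highest score. Only 12 regions (0.871%) had both peaks in the upper 50% of their lists, while 560 (40.7%) had both in the lowest 25%. A lone region had a peak in the highest 25% of a list: chr16:91190946-91193931 (mm10), outside genes, with an AZD2014 score of 577 (rank 1092), a rapamycin score of 90.2 (rank 11694) and the nearest DMSO peak 103981 bp away.

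**Figure D1:**
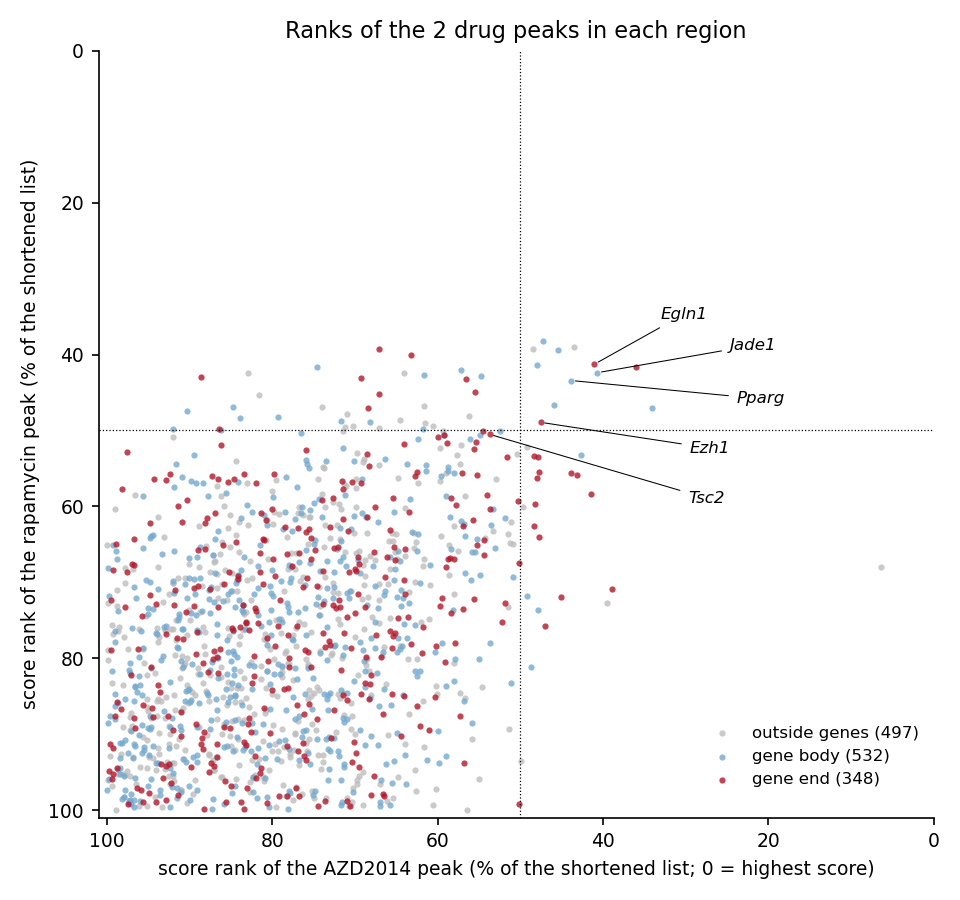
Score rank of the AZD2014 peak (x axis) against that of the rapamycin peak (y axis), each as a percentage of the shortened list with the highest score at 0, for the 1377 both-drug regions coloured by place; dotted lines mark 50%. Most points lie in the lower left, 12 have both ranks above the dotted lines, and 1 region outside genes stands alone at the right.

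The peaks of both drugs overlap in each region by the rule. They overlapped by at least 50% of each peak in 1333 regions. The median midpoint offset was 53.0 bp, beside 54.5 bp in regions open in all 3 lists. The median overlap was 76.0% of the joint span of both drug peaks, beside 82.4% in regions open in all 3 lists. The AZD2014 peak was the wider in 836 regions and the rapamycin peak in 538. Ranks were better under AZD2014 in 640 and under rapamycin in 737, and across members the ranks of both drugs had a Spearman coefficient of 0.335, a description over regions that share libraries and a selection threshold. The median region was 658 bp wide, and 10 reached 1500 bp. Together they covered 973 kb.

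The selection threshold touched the lists unequally. The DMSO list had 17189 peaks in full, so shortening removed none of it, and none of the 1377 regions had a peak in the full DMSO list. Shortening did remove weaker peaks from the longer AZD2014 (21321) and rapamycin (18233) lists. Of the regions shared by DMSO and rapamycin, 433 of 820 (52.8%) had an AZD2014 peak below the threshold, and of those shared by DMSO and AZD2014, 163 of 1079 (15.1%) had a rapamycin peak there. DMSO peaks weaker than the lowest deposited score of 50.01 were not analysed here. When every list was shortened to its upper 50%, 503 regions had peaks under both drugs and not DMSO, and 12 of the 1377 were among them.

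Regions at the edge show how close the selection is. Among members nearest to being left out were one in the body of Il1r1, the interleukin-1 receptor gene, with scores of 67.1 (AZD2014) and 55.5 (rapamycin), and one 8257 bp from Bbc3, which encodes the pro-apoptotic protein PUMA, with scores of 68.3 and 53.7. Just outside lay a region at Grtp1, whose AZD2014 score of 67.0 fell below the threshold, and one in Bcr, whose rapamycin score of 53.7 did. On the DMSO side, regions near Clec12b (DMSO 50.03, AZD2014 74.1, rapamycin 58.7) and Sema5b (DMSO 50.1, AZD2014 116, rapamycin 128) were left out by a DMSO peak close to the lowest score.

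By place, 348 both-drug regions (25.3%, interval 23.0 to 27.6) lay within 1 kb of either end of a protein-coding gene, 532 (38.6%, 36.1 to 41.2) elsewhere in a gene body and 497 (36.1%, 33.6 to 38.7) outside genes. The regions missing from the rapamycin list (23.8% at gene ends) and from the AZD2014 list (20.9%) were placed much alike, with overlapping intervals. Regions open in all 3 lists differed, with 63.3% (62.4 to 64.1) at gene ends. The gap was smaller among weak peaks. Among AZD2014 peaks of the lowest 25% of ranks, 22.8% (20.1 to 25.8) of both-drug regions and 26.5% (24.1 to 28.9) of regions open in all 3 lists lay at a gene end. In the next 25% of AZD2014 ranks the shares were 27.9% (24.2 to 32.0) and 41.4% (39.7 to 43.2), whose intervals do not overlap. By rapamycin rank the shares were 22.1% (19.4 to 25.2) and 28.2% (25.8 to 30.7) in the lowest 25%, and 29.7% (26.0 to 33.6) and 41.3% (39.6 to 43.0) in the next, without overlap in either. When lists were shortened to the upper 50% of the shortest, 59.4% of the regions so chosen lay at gene ends and 16.5% outside genes.

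**Figure D2:**
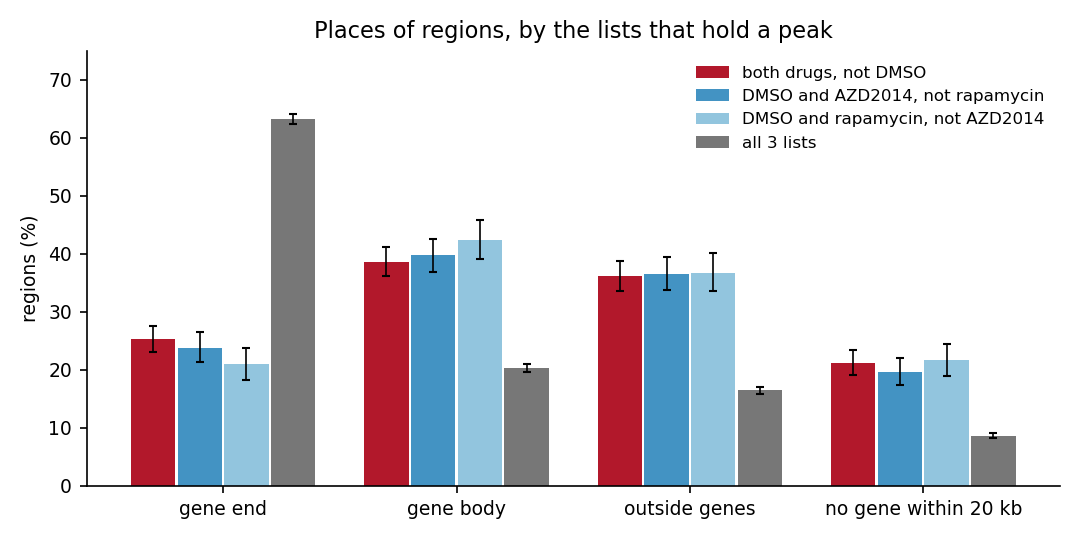
Percentage of regions (y axis) at a gene end, in a gene body, outside genes and with no protein-coding gene within 20 kb, for both-drug regions (red), the regions missing from 1 drug list (blues) and those in all 3 lists (grey); error bars are 95% Wilson intervals. The red and blue bars stand close together, while the grey bar reaches 63.3% at gene ends.

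Listed RefSeq gene starts fell inside 297 both-drug regions (21.6%, 19.5 to 23.8). Of these, 256 held a start of a protein-coding gene, 41 held only non-coding starts, such as those of long non-coding RNAs, and 17 held starts on both strands, as at Tsc2, whose region also holds the start of the base excision repair gene Nthl1. Regions with non-coding starts only included 24 outside protein-coding genes. Of 1005 listed microRNA hairpins, 3 (Mir8120, Mir6936 and Mir5135) overlapped a both-drug region.

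Taking 1 promoter per region, that of the listed start nearest the region's middle, the both-drug promoters (297) were less CpG-rich than those of regions open in all 3 lists. Their median was 17.0 CpG dinucleotides and 59.7% G and C, against 23.0 and 62.7% for the 7423 promoters of regions in all 3 lists, and 7 and 52.7% for all 32851 listed promoters. The promoters of regions missing from the rapamycin list had a median of 17.0 CpG and those missing from the AZD2014 list 14.0. At most 5 CpG dinucleotides were found in 13.8% of the both-drug promoters, 2.95% of those open in all 3 lists and 43.6% of all listed.

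Of 25 motifs searched on both strands, the GC box GGGCGG was in 58.9% (53.2 to 64.4) of both-drug promoters, beside 35.7% of all listed and 72.5% of those open in all 3 lists. The ETS motif CCGGAAG, common at housekeeping promoters, was in 8.75% (6.04 to 12.5), close to 8.86% of all listed promoters. It was in 18.5% (13.7 to 24.5) of promoters missing from the rapamycin list, 10.6% (6.51 to 16.7) of those missing from the AZD2014 list and 21.6% of those open in all 3. The nuclear receptor hexamer AGGTCA was in 8.08% (5.49 to 11.7) of both-drug promoters, against 16.5% (12 to 22.3) and 16.2% (11.0 to 23.1) in the other pair sets and 16.3% of all listed. Among promoters open in all 3 lists AGGTCA was in 10.6% (9.96 to 11.4), within the both-drug interval. The AP-1 motif TGANTCA, bound by Fos and Jun proteins, was in 7.74% (5.22 to 11.4) of both-drug promoters, against 4.0% (2.04 to 7.69) and 2.82% (1.10 to 7.02) in the other pair sets. It was in 7.81% of all listed and 3.99% (3.57 to 4.46) of those open in all 3 lists. Regions of a lone list were closer to the both-drug regions for some of these: with AZD2014, rapamycin and DMSO alone, the ETS motif was in 8.88%, 9.78% and 6.74% of promoters and AP-1 in 7.01%, 6.52% and 7.25%, and AGGTCA was in 8.29% with DMSO alone, beside 12.6% and 15.8% with AZD2014 and rapamycin alone. Matches to the hypoxia response core ACGTG (23.9%, 19.4 to 29.1) and the Myc and TFEB E-box CACGTG (9.43%, 6.60 to 13.3) had intervals overlapping those of both other pair sets. None of these differences among 25 motifs was tested.

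**Figure D3:**
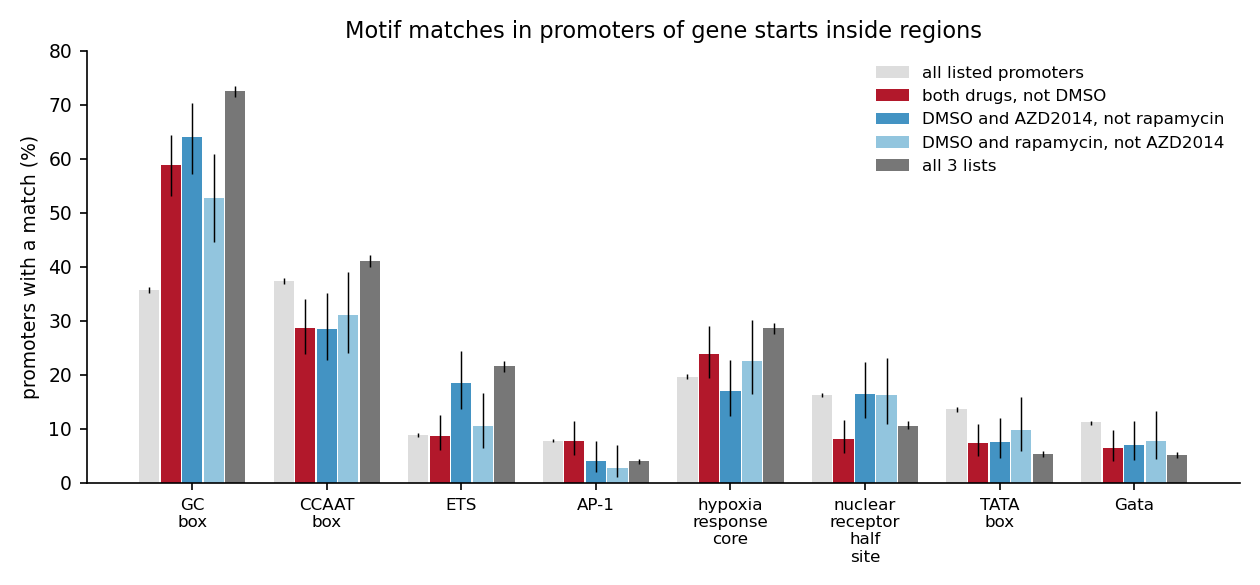
Percentage of promoter windows (y axis) with a match to 8 of the 25 motifs, for all listed promoters (light grey) and for promoters whose start lies in both-drug regions (red), regions missing from 1 drug list (blues) or regions in all 3 lists (dark grey); lines are 95% Wilson intervals. The red ETS bar sits at 8.75%, near the light grey bar. The red AGGTCA bar at 8.08% is below both blue ones and nearer the dark grey one at 10.6%.

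Most both-drug regions lay far from DMSO peaks rather than beside them. The median distance to the nearest DMSO peak was 24138 bp, 31 regions (2.25%) lay within 500 bp of one and 226 (16.4%) more than 100 kb away. Against the shortened lists, the other pair sets had like medians, 23295 bp from regions missing under rapamycin to the nearest rapamycin peak and 22594 bp from regions missing under AZD2014 to the nearest AZD2014 peak. Against the full drug lists, which hold weaker peaks, the medians were 14659 bp and 0 bp, whereas the shortened and the full DMSO lists are the same. The farthest both-drug region lay in Ctnna2, an alpha-catenin gene of neurons, 2641734 bp from a DMSO peak with scores of 152 (AZD2014) and 98.7 (rapamycin). Next came the start of Dcaf12l1 on the X chromosome (scores 179 and 110) and the body of Sorcs1, a sorting receptor gene (121 and 56.5).

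**Figure D4:**
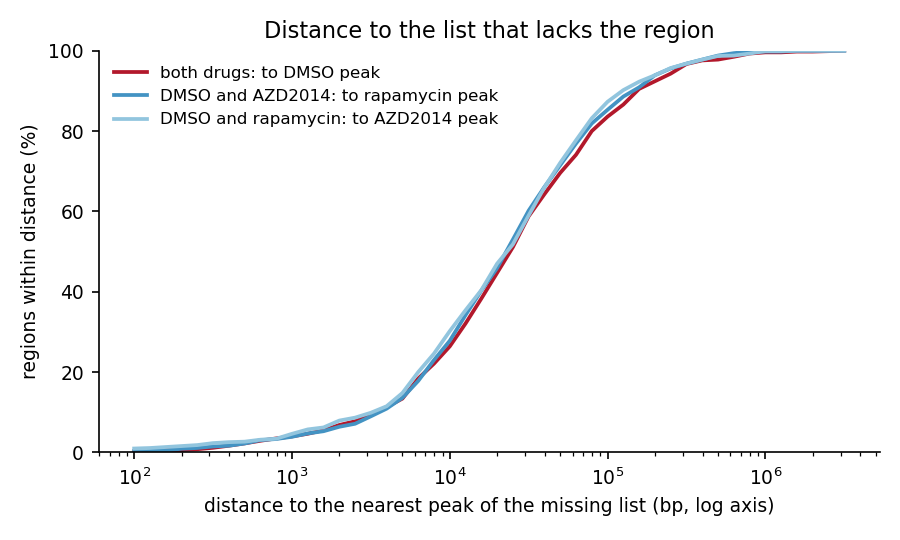
Cumulative percentage of regions (y axis) within a given distance (x axis, bp, log axis) of the nearest peak of the shortened list that lacks them, for both-drug regions (red) and for regions missing from the rapamycin or the AZD2014 list (blues). The 3 curves run close together, with medians of 24138, 23295 and 22594 bp.

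The region with the best worse rank lay at the start of Egln1, the gene of a HIF prolyl hydroxylase that acts as a cellular oxygen sensor (chr8:124949134-124949820). Its scores were 227 under AZD2014 (rank 7053) and 176 under rapamycin (rank 7093), and the nearest DMSO peak was 50763 bp away. Zfp637, a zinc finger gene, followed with scores of 258 and 174 at its start (chr6:117840605-117841757). The third, at an internal start of Jade1, a subunit gene of HBO1 histone acetyltransferase complexes, spanned 2330 bp (chr3:41563998-41566327, scores 230 and 170) and lay 154 bp from a DMSO peak.

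Others among the 20 best-ranked regions held gene starts. Ezh1, an H3K27 methyltransferase gene, had scores of 192 and 141 (chr11:101226043-101226848), with a DMSO peak 5189 bp away. The start of Tsc2, whose product tuberin restrains mTORC1 through Rheb, had 164 and 136 (chr17:24632286-24632979), 21099 bp from a DMSO peak. Foxred2, which acts in protein degradation from the endoplasmic reticulum (204 and 185), Ufc1, the conjugating enzyme of the UFM1 system (188 and 127), and Pdf, a mitochondrial peptide deformylase (190 and 127), also had their starts in such regions. Tbl3, a nucleolar protein gene, had one at a gene end without a listed start of its own (173 and 127).

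The remaining best-ranked regions lay away from listed starts. In the body of Pparg, the nuclear receptor of fat cell formation, a region 57857 bp from the nearest listed Pparg start had scores of 212 and 166 (chr6:115479923-115481229). Dab2ip, a Ras GTPase-activating protein gene (201 and 151), Rhobtb1, an atypical GTPase gene (272 and 150), Mcph1, a microcephaly gene of chromosome condensation (193 and 191), Nrip3 (190 and 176), Nbea (169 and 137) and Wdfy1 (218 and 127) had theirs in the gene body. Tspan2, a tetraspanin gene, and Kdm5a, an H3K4 demethylase gene, were the nearest genes to regions 19072 bp (188 and 186) and 8223 bp (184 and 131) away. For chr6:86599783-86600548 (214 and 187) the 1 protein-coding gene within 20 kb was a predicted Gm gene, and for chr5:75730568-75731392 (179 and 128) there was none. All 20 had their worse rank between 7093 and 9233 of 17189.

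The widest both-drug region, 3558 bp, lay at Duxf3 (chr10:58230678-58234235, scores 99.6 and 85.6), one of the tandem near-identical Dux copies, where reads may be shared between copies and the place is uncertain. It was followed by the chromosome 16 region described above (2986 bp) and by chr15:91906769-91909188, outside genes (2420 bp, scores 76.2 and 134).

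Within 20 kb of 1685 of 21887 protein-coding genes (7.7%) there was a both-drug region, against 6.47% for regions missing under rapamycin and 4.59% for those missing under AZD2014. At a gene end the shares were 1.77% (387 genes), 1.37% and 0.864%. Of the 1685 genes, 1568 had 1 such region, 107 had 2, 9 had 3 and 1, Nfix, had 4. Of the 387, 304 had no other region at a gene end and 57 also had one open in all 3 lists. Longer genes had a both-drug region more often: 5.48% of genes under 10 kb, and 14.3% of those of 100 kb or more. The other pair sets rose likewise, from 4.74% to 11.1% for regions missing under rapamycin and from 2.9% to 8.48% for those missing under AZD2014.

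Gene lists by pathway held 1032 genes with a position, of which 135 (13.1%) had a both-drug region within 20 kb. Regions missing under rapamycin reached 112 of the 1032, beside 6.47% of all protein-coding genes. Those missing under AZD2014 reached 87 of the 1032, beside 4.59%. The listed genes thus stood above all genes in each of these sets. The both-drug share was above 7.7% in 23 of 31 lists, and 847 of the 1032 genes had a region open in all 3 lists. The 7.7% includes genes without any region nearby. Of the 15463 protein-coding genes with a region of any combination within 20 kb, 10.9% had a both-drug one.

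**Figure D5:**
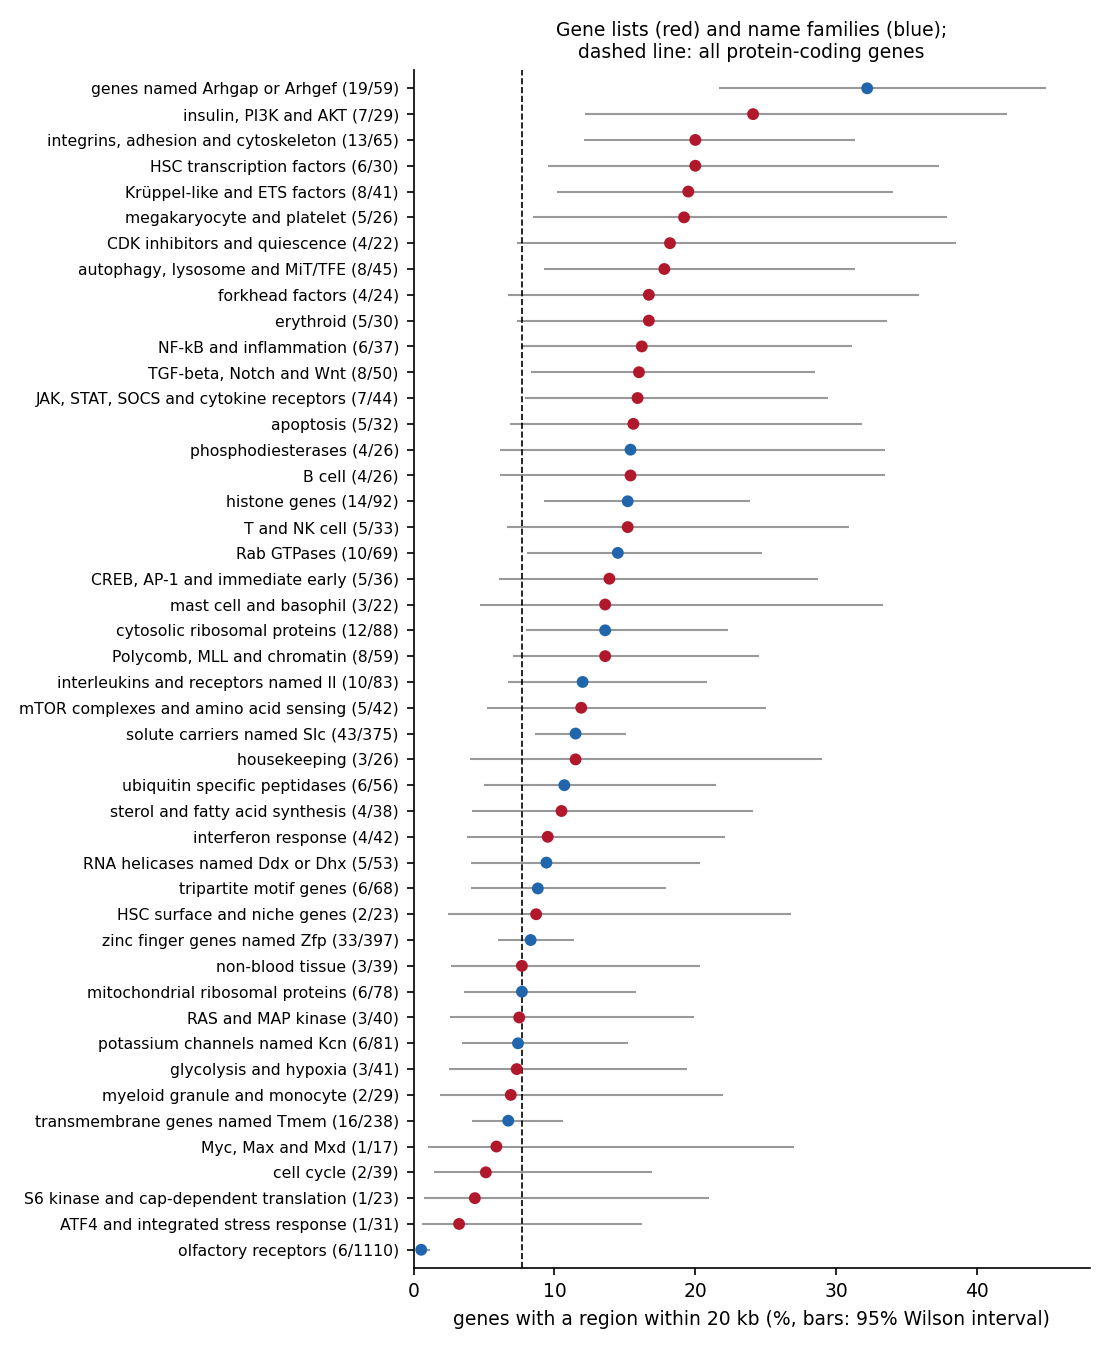
Percentage of genes (x axis) with a both-drug region within 20 kb, for the 31 gene lists (red) and 15 name families (blue), with the number of genes in brackets and 95% Wilson intervals; the dashed line marks 7.7% of all protein-coding genes. Arhgap and Arhgef genes lie highest at 32.2% and olfactory receptors lowest at 0.541%, and most intervals cross the dashed line.

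Among genes of the mTOR complexes and of amino acid sensing, 5 of 42 (11.9%, 5.19 to 25) had a both-drug region. Among inhibitors of mTORC1, Tsc2 had one at its start, as above, and Akt1s1, which encodes PRAS40, one 1243 bp from the gene (scores 135 and 77.4). Sec13, part of the amino acid sensing complex GATOR2 and of the COPII coat, had one at its start (130 and 79.1), 42927 bp from a DMSO peak and with no region open in all 3 lists in its window. Prr5, a subunit gene of mTORC2, had one at an internal start (128 and 74.2), and Nprl2, a GATOR1 subunit gene, one 14987 bp away (87.3 and 80.2). In the list of S6 kinase and cap-dependent translation, Eif4g1, the scaffold of the cap-binding complex, was the 1 gene of 23, with a region 70 bp from its end (82.5 and 72.2).

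Insulin, PI3K and AKT genes, which feed into mTOR, had a both-drug region at 7 of 29 (24.1%, interval 12.2 to 42.1). The receptor gene Igf1r had 2 in its body, with scores of 160 and 168 in the one and 97.1 and 90.3 in the other. The adaptor gene Irs1 had one at its start (chr1:82290975-82291917, 104 and 76.5), 7290 bp from a DMSO peak. Pik3cg, the catalytic PI3K gamma subunit of blood cells, had one at its start (chr12:32208003-32209015, 101 and 65.1), and no region open in all 3 lists lay in its window. Regions in the body of Pik3ap1 or beside Pdpk1, Phlpp1 and Sgk3 made up the rest.

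Autophagy and lysosome genes, which mTORC1 restrains, had a both-drug region at 8 of 45 (17.8%, 9.29 to 31.3). At a gene end only the cathepsin gene Ctso had one (chr3:81932298-81933148, scores 120 and 186), 148777 bp from a DMSO peak. Others lay in the body of Atg10 or beside Ulk1 (145 and 92.3), Sqstm1 (108 and 66.5), Gabarap, Uvrag and Lamp2, and those beside Ulk1 and Gabarap held the start of a neighbouring gene, Pus1 and Dvl2.

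Metabolic lists were near the background, and the stress list lay lower with a wide interval. Glycolysis and hypoxia genes had a both-drug region at 3 of 41 (7.32%), among them Egln1, and sterol and fatty acid synthesis genes at 4 of 38 (10.5%). Elovl2, a fatty acid elongase gene, had one at its start with scores of 156 and 159 (chr13:41220069-41220882), and Pparg had 2, the weaker with scores of 71.7 and 54.6. The kinase PKR gene Eif2ak2 was the 1 gene of 31 (3.23%, 0.572 to 16.2) in the ATF4 and stress response list (chr17:78882174-78882960, 150 and 63.5). Cell cycle genes had 2 of 39 (5.13%), Ccnd1 and Cdk6, both in the gene body. Among mitochondrial ribosomal proteins 6 of 78 (7.69%) had one, with Mrpl42 (115 and 167) and Mrps22 (151 and 80.8) at their starts.

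HSC transcription factor genes had a both-drug region at 6 of 30 (20%, 9.51 to 37.3), beside 7.7% of all protein-coding genes. They were not particular in this: regions missing under rapamycin reached 7 of the 30, beside 6.47% of all genes. Those missing under AZD2014 reached 6, beside 4.59%. Lyl1, a basic helix-loop-helix factor, had a both-drug region at its end (91.2 and 97.3), 1008 bp from a DMSO peak. Spi1, which encodes PU.1, had one at its end (91.9 and 54.4). Lmo2, whose product bridges Tal1 and Gata factors, had one 11258 bp from the gene with scores of 148 and 102 (chr2:103944924-103946645). Those in Runx1 (68.5 and 65.2) and Etv6 (68.2 and 63.1) lay in the gene body and ranked low. Slamf1, the gene of the HSC marker CD150, had one in its body (72.9 and 62.0) although it had no gene-end peak in any list.

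Krüppel-like and ETS factor genes had one at 8 of 41 (19.5%). Elk3, an ETS repressor gene that is also known as Net, held 3 in its window: 2 in its body (83.7 and 59.9, then 68.8 and 58.8) and 1 at its start (chr10:93310744-93311499, 68.4 and 57.6), the last 141272 bp from a DMSO peak. With 1 more beyond its window they formed a run of 75378 bp (chr10:93261139-93336516) in which no other region of the 3 shortened lists lay. Ets1 had 2 in its body (110 and 93.0, then 128 and 66.3). Forkhead genes with one at a gene end were Foxp1 (191 and 98.4) and Foxp2 (92.7 and 67.1).

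Chromatin genes had a both-drug region at 8 of 59 (13.6%), at gene ends those of Ezh1, Phf21b (216 and 120), Arid1a, a BAF complex subunit gene (128 and 87.0, 1478 bp from a DMSO peak), and Phf19, a Polycomb-associated protein gene (77.4 and 61.2). In the immediate early and CREB list 5 of 36 had one, with Mafg (91.7 and 104) and Ier2 (103 and 63.1) at gene ends. The Mafg region also held the start of the deacetylase gene Sirt7.

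Cytokine and inflammatory signalling genes had both-drug regions at gene ends and away from them, where 25.3% of all both-drug regions lay at gene ends. In the NF-kB list 6 of 37 genes had one, and that of the TNF receptor gene Tnfrsf1a lay at its start (chr6:125349266-125350061, 115 and 66.5). That of Casp8 lay in the gene body and held a listed Casp8 start (77.0 and 79.2). Of JAK, STAT, SOCS and cytokine receptor genes 7 of 44 had one, and Csf2rb, the shared receptor chain for IL-3, IL-5 and GM-CSF, had it at its end (80.5 and 71.0). The same region reached the window of Csf2rb2, and 1 region served both Il4ra and Il21r. Interferon response genes numbered 4 of 42 (9.52%), with Irf4 (79.7 and 76.7) and Isg20 (70.9 and 62.1) having one at their starts beside Eif2ak2.

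Genes named Arhgap or Arhgef, which encode GTPase-activating proteins and guanine nucleotide exchange factors of the actin cytoskeleton, had a both-drug region at 19 of 59 (32.2%, 21.7 to 44.9). Regions missing under rapamycin reached 11 of them and regions missing under AZD2014 reached 1. These are long genes, with a median of 94670 bp. In the class of 100 kb or more the share was 8 of 28 (28.6%) beside 14.3% of all genes of that length. From 30 to 100 kb it was 6 of 16 (37.5%) beside 8.47%, and from 10 to 30 kb 5 of 13 (38.5%) beside 7.34%. Below 10 kb it was 0 of 2 beside 5.48%. The part of gene length in the family's share was not tested. At gene ends lay those of Arhgef19 (161 and 137), Arhgef1 (114 and 93.0, 684 bp from a DMSO peak) and Arhgap20 (109 and 117), and 12 lay in gene bodies. Among 65 genes of integrins, adhesion and cytoskeletal signalling, 13 (20%) had one, 4 of them Arhgap or Arhgef genes. Elmo1, which acts with DOCK proteins on Rac, had 3 (124 and 76.7 at its start), and Nedd9, an integrin adaptor gene, 1 at its end (120 and 157).

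Growth, survival and developmental signalling lists each had a few. In the RAS and MAP kinase list 3 of 40 genes had a both-drug region, with that of Sos2, a Ras exchange factor gene, at its start (109 and 69.8). Among CDK inhibitor and quiescence genes 4 of 22 had one, and Gadd45g had it at its end (94.3 and 55.0), 1547 bp from a DMSO peak. Apoptosis genes had 5 of 32, none at the end of its gene, including the body of Bcl2 (148 and 68.2). In the Myc, Max and Mxd list Mga was the 1 gene of 17, at its end (75.2 and 118). Genes of TGF-beta, Notch and Wnt signalling had 8 of 50 (16%), where the Wnt receptor gene Fzd6 had one at its end (121 and 72.2), 105777 bp from a DMSO peak.

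Shared regions weighed on some families. Histone genes with a both-drug region numbered 14 of 92 (15.2%), but all except H1f0 (71.2 and 73.6) drew on just 2 regions of the chromosome 13 cluster, at H2ac10 (79.2 and 81.4) and H1f3 (105 and 74.1). Cytosolic ribosomal protein genes had 12 of 88 (13.6%), and only the region of Rps15a (87.9 and 55.7) lay at the gene's own end. Housekeeping genes had 3 of 26, all beside the gene.

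Lists of other blood lineages and of non-blood tissue give the setting for cells that a culture could hold. Both-drug regions lay at 5 of 26 megakaryocyte (19.2%, 8.51 to 37.9), 5 of 30 erythroid (16.7%), 3 of 22 mast cell and basophil (13.6%), 4 of 26 B cell (15.4%) and 5 of 33 T and NK cell genes (15.2%). These shares were above the 7.7% of all genes, though the intervals of the last 4 include it, and in the range of the pathway lists, whereas 2 of 29 myeloid granule (6.90%) and 3 of 39 non-blood genes (7.69%) were near it. At gene ends they included Thbs1 (92.8 and 107), Kel (70.4 and 69.1), Cd79a, through a region that holds the start of Arhgef1, and Kdr, the VEGF receptor gene of endothelium, with 2 (164 and 107 at its start). Whether a change in cell makeup contributed was not tested. Olfactory receptor genes, closed in most tissues, had one at 6 of 1110 (0.541%).

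Some both-drug regions lay near each other. Within 50 kb of another were 172 (12.5%), in 81 runs, against 7.97% of regions missing under rapamycin and 8.78% of those missing under AZD2014, which are fewer in number. Besides the Elk3 run, 1 run of 4 spanned 61925 bp at chr8:84661560-84723484, across Ier2, Nacc1, Lyl1 and Nfix, with scores of 86.5 to 103 under AZD2014 and 63.1 to 97.3 under rapamycin, and 2 regions open in all 3 lists and 1 each of AZD2014, rapamycin and DMSO alone lay in the same stretch. Nfix, Lyl1 and Nacc1 thus count many of the same regions. Other genes with 3 were Ndel1, Ptprs, Trim7, Tspan18 and Usp39, and the Usp39 ones included both ends of the gene (100 and 87.6, and 81.8 and 119). On chromosomes, the share of regions that were both-drug ran from 4.58% on chromosome 11 to 7.65% on chromosome 6, with 5 of 21 (23.8%, 10.6 to 45.1) on the Y.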

How the data were processed

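ATAC-seq of 1 library per condition was used. The authors deposited 1 peak list per library, called per sample and not pooled, with a score per peak whose scale is not given; peak names carry the word MACS. The build was mm10 and CASAVA is named, per the submitters' processing notes. Caller settings, aligner, duplicate handling and any transposase shift, which set the weak peaks, were not given in the sources used here.

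Lists were shortened to 17189 peaks by score (ties: wider, then position) and merged at 1 bp of overlap. Positions were written from 1. Genes came from RefSeq on GRCm38.p6: 21887 protein-coding genes without strand or exons. A planned window on transcription starts was therefore replaced by either gene end, 1 kb on each side, and listed starts, known for 17492 genes and none on chromosome 18, were counted separately. Of 1034 listed genes, Ahsp and Tpsab1 had no position. No test was run, since scores chose the members and each condition had 1 library.

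Named regions were the 20 best by worse rank, the 10 genes with most regions, list members at gene ends (best ranked first, at most 4 a list), 5 on each side of the threshold and the widest 3. Others were named after their values were seen, and some genes are not reported here. Members and lists were chosen with earlier results of these data known. Code was tested on simulated data, with Python 3.11.15, numpy 2.4.6, pandas 2.3.3, scipy 1.17.1 and matplotlib 3.10.9. The alternatives were list length, distance to DMSO peaks, reciprocal overlap, fixed peak width, chromosomes, gene end and gene window.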

Additional observations from a re-analysis of the deposited data

How the results depend on the processing

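Of 40 alternative values, 24 stayed within 1.5 times (counts) or within the counting interval (shares and ranks). With the full lists there were 2155 regions, 22.5% at gene ends and a median worse rank of 83.6%. With the upper 50% of the shortest list there were 503 regions, 59.4% at gene ends, 16.5% outside genes, 870 genes and a median of 90.0%. Only 12 of the 1377 regions were among these 503, so the values describe a largely different set, most of it with a weaker DMSO peak. Peaks set to 200 bp gave 31.6% at gene ends, 32.1% outside genes and a median of 82.6%. A gene end of 500 or 2500 bp gave 22.7% or 32.0%. Windows of 5 and 50 kb gave 1047 and 2776 genes, and the nearest gene alone 1018. A wider gene end or window takes in more by construction; otherwise the cause was not tested. Requiring no DMSO peak within 500 bp or 5 kb kept 1346 and 1192 of the 1377 regions. No paired analysis was possible because each condition had 1 library. Read depth is unknown, so a missing peak shows only that the authors' threshold was not passed.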
